A study of Mus musculus with 6 samples.

Results

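The placental prolactin genes described here are 6 listed members of the mouse prolactin family: Prl8a9, Prl8a2, Prl3b1, Prl2a1, Prl6a1 and Prl7d1. They were chosen by name with earlier results of these arrays in view, so their levels and differences on these arrays are a description and carry no test. Of the 6, 5 had a probe set with exactly 1 gene symbol and Prl3b1 was not analysed here, which leaves 5 of the 18194 genes taken from the arrays. The measured members fell apart into Prl8a9 and Prl8a2, which were well above background in iSSC, and Prl2a1, Prl6a1 and Prl7d1, which stayed below background on all 6 arrays.

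The arrays profiled RNA from cultured spermatogonial stem cells of male ICR mice aged 3 to 5 days, with no genetic change or drug treatment named in the labels. SSC are the unipotent germ-line stem cells, iSSC an intermediate state and mSSC a multipotent state, with 2 arrays each. All 3 kinds were kept on mitomycin-treated mouse embryonic fibroblasts and picked by shape, so feeder cells can be in every sample. Both low passage numbers (0 to 1) and intermediate ones (9 to 10) were used, and some flattened colonies were moved to another serum-free medium. The labels tie no array to a passage or a medium. They also do not say whether the 2 samples of a kind were separate cultures, so a p-value here reflects sample-to-sample spread that may be technical. The spermatogonial marker Gfra1 was between 9.56 and 10.72 on the SSC and iSSC arrays, and the pluripotency gene Nanog was at 11.58 and 12.44 on the mSSC arrays and at 3.25 to 3.62 elsewhere. These markers do not set iSSC apart from SSC, and both also carried macrophage and fibroblast transcripts.

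Prolactin is a pituitary hormone, but rodents carry a large cluster of related genes that is active mainly in the placenta and the decidua, the lining of the pregnant uterus. Classical members such as the placental lactogen Prl3b1 act through the prolactin receptor, which signals through Jak2 and Stat5. The nonclassical members, to which the other 5 belong, are secreted by trophoblast giant cells, spongiotrophoblast or decidual cells and largely act by other routes. None of them is a known marker of spermatogonia or of pluripotent cells.

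The sequences before the start sites are shown because Prl8a8 and Prl8a1, on either side of Prl8a9 in the cluster, differed from it in level while these stretches are alike. Promoter sequences came from RefSeq on the mouse build GRCm38.p6, which held 5 of the 6 members (Prl8a2 was not among them) and 22 family genes in all. The 250 bases before the start site are printed 5' to 3' on the strand of the gene, with each TATATA, a form of the TATA box, in capitals. Prl8a9 (chr13:27564607-27564856, minus strand) is followed by its nearest relatives by sequence, Prl8a1 (chr13:27582172-27582421, minus) and Prl8a8 (chr13:27513218-27513467, minus). Below them stand the members that stayed below background, Prl6a1 (chr13:27312365-27312614, plus), Prl7d1 (chr13:27716738-27716987, minus) and Prl2a1 (chr13:27801405-27801654, plus).
Prl8a9: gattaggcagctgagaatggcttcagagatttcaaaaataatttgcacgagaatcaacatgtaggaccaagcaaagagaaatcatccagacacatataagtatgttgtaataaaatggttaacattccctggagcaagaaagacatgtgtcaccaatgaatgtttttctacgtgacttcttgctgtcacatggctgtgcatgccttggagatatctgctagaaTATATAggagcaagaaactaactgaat
Prl8a1: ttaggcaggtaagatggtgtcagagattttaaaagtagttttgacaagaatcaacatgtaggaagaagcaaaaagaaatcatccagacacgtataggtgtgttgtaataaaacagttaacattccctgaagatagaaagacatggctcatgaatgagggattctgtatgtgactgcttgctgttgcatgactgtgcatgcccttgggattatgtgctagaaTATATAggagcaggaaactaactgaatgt
Prl8a8: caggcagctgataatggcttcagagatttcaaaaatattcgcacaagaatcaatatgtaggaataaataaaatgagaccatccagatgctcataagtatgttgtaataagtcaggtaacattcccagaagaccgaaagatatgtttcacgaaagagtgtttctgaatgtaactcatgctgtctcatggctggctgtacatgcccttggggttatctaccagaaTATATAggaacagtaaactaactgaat
Prl6a1: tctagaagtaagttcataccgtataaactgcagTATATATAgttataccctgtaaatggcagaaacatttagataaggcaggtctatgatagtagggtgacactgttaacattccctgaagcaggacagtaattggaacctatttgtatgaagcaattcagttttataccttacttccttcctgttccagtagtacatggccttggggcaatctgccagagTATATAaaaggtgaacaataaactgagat
Prl7d1: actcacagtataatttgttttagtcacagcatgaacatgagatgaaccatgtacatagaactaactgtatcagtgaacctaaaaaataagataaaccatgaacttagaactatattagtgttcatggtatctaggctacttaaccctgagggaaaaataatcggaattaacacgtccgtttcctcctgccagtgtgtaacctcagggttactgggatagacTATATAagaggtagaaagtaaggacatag
Prl2a1: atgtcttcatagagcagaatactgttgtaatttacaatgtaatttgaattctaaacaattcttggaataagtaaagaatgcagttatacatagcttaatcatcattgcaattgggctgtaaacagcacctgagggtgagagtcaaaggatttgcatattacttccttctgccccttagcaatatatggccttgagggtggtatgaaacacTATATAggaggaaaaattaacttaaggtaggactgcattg

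In a global alignment 82.3% of the aligned positions of the Prl8a1 stretch and 78.0% of those of Prl8a8 matched Prl8a9, against 59.6% for Prl6a1, 55.6% for Prl7d1 and 55.4% for Prl2a1. The stretch of Prl8a6, another gene of the Prl8a branch, was the least alike of the family at 48.0%. TATATA, which reads the same on both strands, was found in 19 of the 22 family stretches (86.4%) and in 5.56% of 27025 promoters of the same length. In the family its first base lay 27 to 51 bases before the start site, counting the copy nearest to the start, and 27 bases before it in both Prl8a9 and Prl8a8. So the match was present in a gene that was high in iSSC and in genes that were not.

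A further 4 short motifs were searched on both strands. TGANTCA, the AP-1 site, was in 7 of the 22 family stretches (31.8%, against 6.87% of all promoters) and AGATAA, which factors of the Gata family bind, in 8 (36.4%, against 10.3%). TTCNNNGAA, which Stat5 binds, was in 5 (22.7%, against 7.18%), and GCCNNNGGC, an AP-2 site, in 1 (4.55%, against 13.6%). None of these 4 was in the 250 bases of Prl8a9, which says only that these letters are not in that window. Of the other stretches printed, those of Prl8a8 and Prl6a1 held both TTCNNNGAA and AGATAA. Prl8a1 and Prl2a1 held only the former of these, and Prl7d1 only the latter.

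Levels below are log2 signals, so a difference of 1 is a 2-fold change. A member was taken as above background in a group when both arrays exceeded the lower quartile of all 18194 genes on that array, which lay between 4.91 and 5.16. The 95th percentile of the 39 olfactory receptor genes, which such cells are not thought to express widely, lay at 4.78 to 5.24 and gave the same counts. By the lower quartile 2 of the 5 measured members were above background in iSSC, 0 in SSC and 0 in mSSC. Over all genes the share above the lower quartile was 73.6% in iSSC, 73.0% in SSC and 72.6% in mSSC, and above the olfactory receptor level 74.3%, 73.9% and 71.5%.

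**Figure D1:**
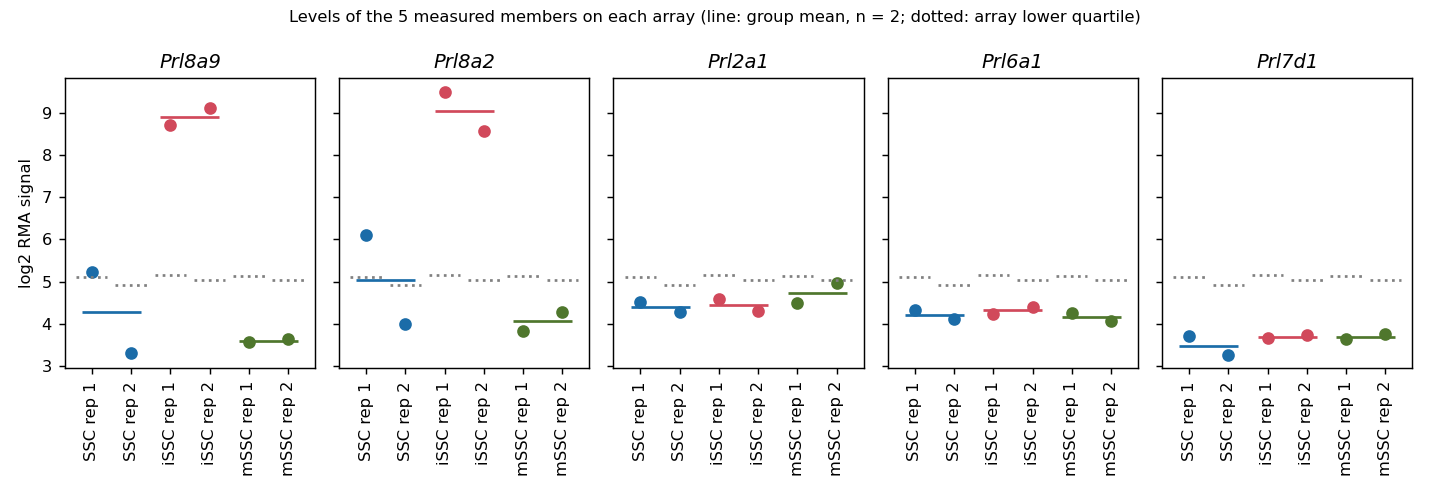
Log2 signal of the 5 measured members on each of the 6 arrays, with the group mean (n = 2) as a line and the lower quartile of each array dotted. Prl8a9 and Prl8a2 lie between 8.57 and 9.50 in iSSC and at 6.11 or below elsewhere, while Prl2a1, Prl6a1 and Prl7d1 lie between 3.26 and 4.97 throughout.

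Prl8a9 encodes a secreted protein of the placental prolactin-like protein C group. Its log2 level was 5.24 and 3.31 on the SSC arrays, 8.71 and 9.11 on the iSSC arrays and 3.57 and 3.64 on the mSSC arrays. Both iSSC arrays were high, SSC replicate 1 was just above the lower quartile by 0.14, and the other 3 arrays were below it. The group means were 4.28 ± 1.37 (SD, n = 2) in SSC, 8.91 ± 0.28 (SD, n = 2) in iSSC and 3.60 ± 0.05 (SD, n = 2) in mSSC. The mean was higher in iSSC than in SSC by 4.63 ± 0.58 (SE of the fit) on the log2 scale, and the mSSC minus iSSC difference was -5.30 ± 0.58. Since SSC replicate 2 and both mSSC arrays were below the lower quartile, these differences are not turned into folds. The lowest iSSC array stood 3.46 above the highest of the other 4 arrays.

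Prl8a2 encodes the decidual prolactin-related protein, a product of decidual and trophoblast cells. Its log2 level was 6.11 and 4.00 on the SSC arrays, 9.50 and 8.57 on the iSSC arrays and 3.84 and 4.28 on the mSSC arrays. The pattern over arrays was that of Prl8a9, with both iSSC arrays high and SSC replicate 1 between them and the rest. The means were 5.05 ± 1.49 (SD, n = 2) in SSC, 9.04 ± 0.66 in iSSC and 4.06 ± 0.31 in mSSC. The iSSC minus SSC difference was 3.98 ± 0.68 (SE) and the mSSC minus iSSC difference -4.98 ± 0.68. The lowest iSSC array was 2.46 above SSC replicate 1. In the order of their group means iSSC came first for both genes with no overlap, and SSC and mSSC overlapped, with mSSC minus SSC at -0.68 ± 0.58 for Prl8a9 and -1.0 ± 0.68 for Prl8a2.

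SSC replicate 1 decided how large the difference to SSC was. It exceeded replicate 2 by 1.93 for Prl8a9 and by 2.11 for Prl8a2. Replicate 1 was the higher in 62.3% of all genes and exceeded replicate 2 by over 1 in 5.55%. Without SSC replicate 1 the iSSC minus SSC difference was 5.59 for Prl8a9 and 5.04 for Prl8a2, and without replicate 2 it was 3.66 and 2.93. The mSSC minus SSC difference changed sign with it, to 0.29 for Prl8a9 and 0.06 for Prl8a2 without replicate 1, so no order of these 2 groups can be given. SSC replicate 1 also had the largest excess of 3' over 5' signal of the beta-actin control, at 0.89 against 0.12 to 0.61 on the other 5 arrays, and a macrophage list median of 11.85 against 10.75 in replicate 2. The part of these in the prolactin signal was not tested.

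The remaining members did not follow that pattern. Prl2a1, which encodes prolactin-like protein M, was at 4.53 and 4.28 in SSC, 4.58 and 4.3 in iSSC and 4.49 and 4.97 in mSSC. Its groups overlapped in all 3 comparisons, and its highest value, on mSSC replicate 2, was 0.06 below the lower quartile of that array, the closest that these members came to it. Prl6a1, which encodes prolactin-like protein B, was at 4.32 and 4.12 in SSC, 4.23 and 4.41 in iSSC and 4.27 and 4.07 in mSSC. It spanned little on 6 arrays, and its groups overlapped as well. Prl7d1, the proliferin-related protein that restrains blood vessel growth in the placenta, was at 3.71 and 3.26 in SSC, 3.67 and 3.74 in iSSC and 3.65 and 3.76 in mSSC. Its groups also overlapped, and iSSC minus SSC was 0.22 ± 0.23, against 0.10 ± 0.21 for Prl6a1 and 0.03 ± 0.26 for Prl2a1. At levels below the lower quartile a small amount of transcript cannot be told from none.

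In the comparison of iSSC with SSC 2.09% of all genes were called at an adjusted p under 0.05, 0.225% as higher and 1.87% as lower, and nothing is read from these shares about the members, which were chosen with this comparison known. Lcn2, a secreted iron-binding protein of inflammation and the gene with the largest increase, differed by 4.73 ± 1.35 and did not pass the test (limma, adjusted p = 0.16). Groups that do not overlap were common, at 50.0% of genes between iSSC and SSC and 62.8% between mSSC and iSSC (58.6% between mSSC and SSC), so the lack of overlap of Prl8a9 and Prl8a2 says little in itself. The median difference of all genes was 0.10 in iSSC minus SSC, 0.08 in mSSC minus SSC and -0.008 in mSSC minus iSSC.

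The other family genes were read beside Prl8a9 and Prl8a2. They cannot show whether the whole cluster changed, since some had no probe set of their own and most were below background. In iSSC against SSC a share of 2.09% would also leave few or no calls among 13 genes. Of the other 20 family genes listed 13 had a probe set of their own, and none of the 13 was called in any of the 3 comparisons (limma, Benjamini-Hochberg over all genes), against 2.09% of all genes in iSSC against SSC, 17.1% in mSSC against iSSC and 18.8% in mSSC against SSC (8.22% higher and 10.6% lower in mSSC). At an unadjusted p under 0.05 the counts were 0, 0 and 1, against 17.0%, 30.9% and 33.4% of all genes, and the smallest adjusted p in each comparison was 0.32, 0.36 and 0.13. The median difference was 0.14 in iSSC minus SSC, close to the 0.10 of all genes, and -0.01 in mSSC minus iSSC. Of the 13 genes 11 were below the lower quartile on all 6 arrays, the pituitary hormone gene Prl among them at 4.32 to 5.08. In mSSC against SSC 1 gene passed in each of 2 of the 13 alternatives: Prl8a8 after median centring (0.80, adjusted p = 0.044) and Prl3a1 without SSC replicate 2 (-3.65, adjusted p = 0.029).

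The other genes of the Prl8a branch were low although they lie on both sides of Prl8a9 in the cluster. Prl8a8 was at 3.59 and 3.73 in SSC, 3.91 and 3.84 in iSSC and 4.06 and 4.36 in mSSC. Prl8a1 was between 3.35 and 3.70 on all 6 arrays, with an iSSC minus SSC difference of -0.04 ± 0.20 (limma, adjusted p = 0.95). Prl8a6 was at 4.20 and 3.53 in SSC, 4.65 and 4.39 in iSSC and 4.24 and 4.02 in mSSC, and its iSSC minus SSC difference of 0.65 ± 0.28 (adjusted p = 0.32) was the highest of the 13. These 3 genes stayed below the lower quartile of every array. In RefSeq order Prl2b1, Prl8a6 and Prl8a8 lie between Prl8a2 and Prl8a9, and Prl8a1 follows Prl8a9.

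Of the 13 other family genes with a probe set of their own, only Prl2b1 and Prl3a1 exceeded the lower quartile on any array. A brighter probe set shared by several Prl2c genes belongs to no single gene and is described under the flagged results. Prl2b1, which encodes prolactin-like protein K, was between 5.65 and 6.27 on all 6 arrays by its brighter probe set, and between 3.07 and 3.35 by its other one, so its level depends on the probe set. Prl3a1 was at 7.53 and 3.44 in SSC, 6.36 and 4.64 in iSSC and 3.65 and 4.13 in mSSC. It was high in SSC replicate 1 and iSSC replicate 1 only, and the iSSC minus SSC difference was 0.01 ± 1.26 (limma, adjusted p = 1.00). The difference of 4.09 between the SSC arrays was the largest of the family, in the same direction as for Prl8a9 and Prl8a2. In all, 15 of the 18 family genes were higher in SSC replicate 1 than in replicate 2, against 62.3% of all genes. Only 3 of the 18 were higher by over 1, against 5.55% of all genes. Most of the 18 lay below the lower quartile, which was itself higher on replicate 1 (5.11 against 4.91).

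**Figure D2:**
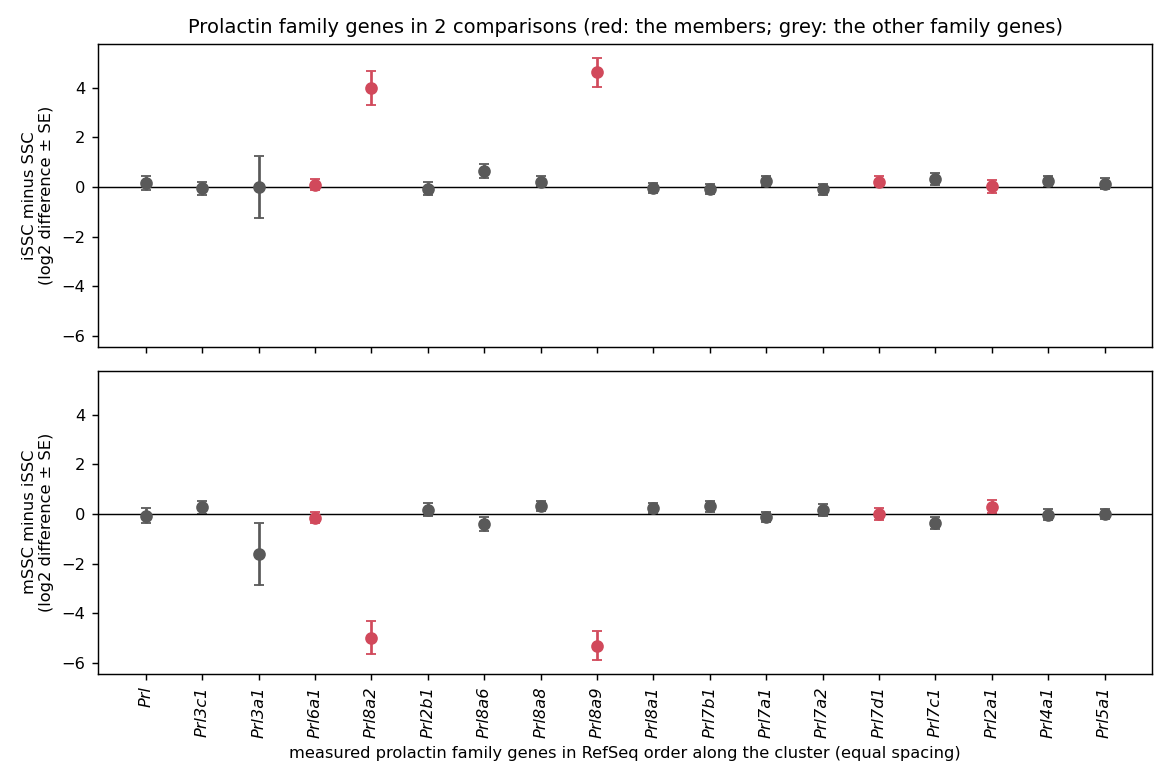
Log2 difference ± SE of the 18 measured prolactin family genes in RefSeq order along the cluster, at equal spacing, for iSSC minus SSC (top) and mSSC minus iSSC (bottom), with n = 2 arrays per group. Prl8a2 (3.98 and -4.98) and Prl8a9 (4.63 and -5.30) stand away from 0 with genes near 0 between them, and Prl3a1 has the widest error.

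The genes that border the cluster were examined as a check on its surroundings. Of the 3 nearest measured genes on each side none was called between iSSC and SSC (limma; 2.09% of all genes were). Hdgfl1, just before the cluster, was at 7.67 and 7.30 in SSC, 8.49 and 7.78 in iSSC and 7.05 and 7.15 in mSSC, with an iSSC minus SSC difference of 0.65 ± 0.30 (adjusted p = 0.34). Sox4, a transcription factor gene after the cluster, fell by 1.14 in mSSC against iSSC (SE 0.26, adjusted p = 0.029) and by 1.57 against SSC (SE 0.26, adjusted p = 0.011). The call against iSSC was lost without either iSSC array, without mSSC replicate 2 and after median centring (adjusted p from 0.057 to 0.18). Nrsn1, a gene of neurons, rose by 0.96 ± 0.22 in mSSC against SSC (adjusted p = 0.031) at levels of 3.33 to 4.51, below the lower quartile, and lost its call without any 1 array other than SSC replicate 2 (adjusted p from 0.05 to 0.12).

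Markers of the placental cells that secrete these hormones were then read, since Prl8a9 and Prl8a2 are products of trophoblast and decidua. Neither the 4 lists of trophoblast genes nor the placental cathepsins had a called member between iSSC and SSC, where 2.09% of all genes were called. With prolactin genes left out, these were 19 trophoblast transcription factors (median difference 0.53), 13 giant cell genes (0.25), 21 spongiotrophoblast and glycogen cell genes (0.14), 15 labyrinth and syncytiotrophoblast genes (0.28) and 8 cathepsins (0.10), where all genes had 0.10. At an unadjusted p under 0.05 the counts were 8, 5, 3, 5 and 0 (limma), against 17.0% of all genes. Some genes belong to more than 1 of these lists.

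Several defining placental genes were at or near background in every sample. Tpbpa, the standard marker of spongiotrophoblast, was at 3.67 and 3.39 in SSC, 3.46 and 3.59 in iSSC and 3.55 and 3.66 in mSSC. Its relative Tpbpb lay between 4.23 and 4.85. All 8 placental cathepsins, proteases of giant cells and labyrinth, were below the lower quartile on all 6 arrays, between 2.86 and 4.33, and so were 5 of 6 pregnancy-specific glycoprotein genes, between 3.43 and 5.42 with the sixth included. The lists as wholes were not at background: 11 of 21 spongiotrophoblast, 3 of 13 giant cell, 2 of 19 transcription factor and 1 of 15 labyrinth genes were below the lower quartile on all arrays.

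The transcription factors of trophoblast gave a mixed picture, with none called in iSSC against SSC. Of the 19, 8 had an unadjusted p under 0.05 there (limma), against 17.0% of all genes. Among these Cited1 was lower in iSSC (-1.80 ± 0.47) and the rest were higher. Those were Bhlhe40 (1.14 ± 0.28), Sox2 (1.38 ± 0.46), Fosl1 (1.38 ± 0.50), Tfap2c (1.23 ± 0.50), Dlx3 (1.06 ± 0.38), Cited2 (0.92 ± 0.32) and Cdx2. Elf5, which keeps trophoblast stem cells committed, lay between 3.74 and 4.25, and Gata3 between 3.56 and 4.69. Cdx2, which specifies the trophoblast lineage, was at 5.05 and 4.98 in SSC, 5.79 and 5.47 in iSSC and 5.33 and 5.43 in mSSC, and its iSSC minus SSC difference of 0.61 ± 0.22 did not pass (limma, adjusted p = 0.23). Hand1, needed for giant cells, was between 4.91 and 5.58. Eomes, Ascl2 and Gata2 were above background on all arrays, at 6.24 to 8.30, 7.14 to 8.32 and 6.77 to 7.54, and were not called in iSSC against SSC (adjusted p = 0.64, 0.37 and 0.84).

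**Figure D3:**
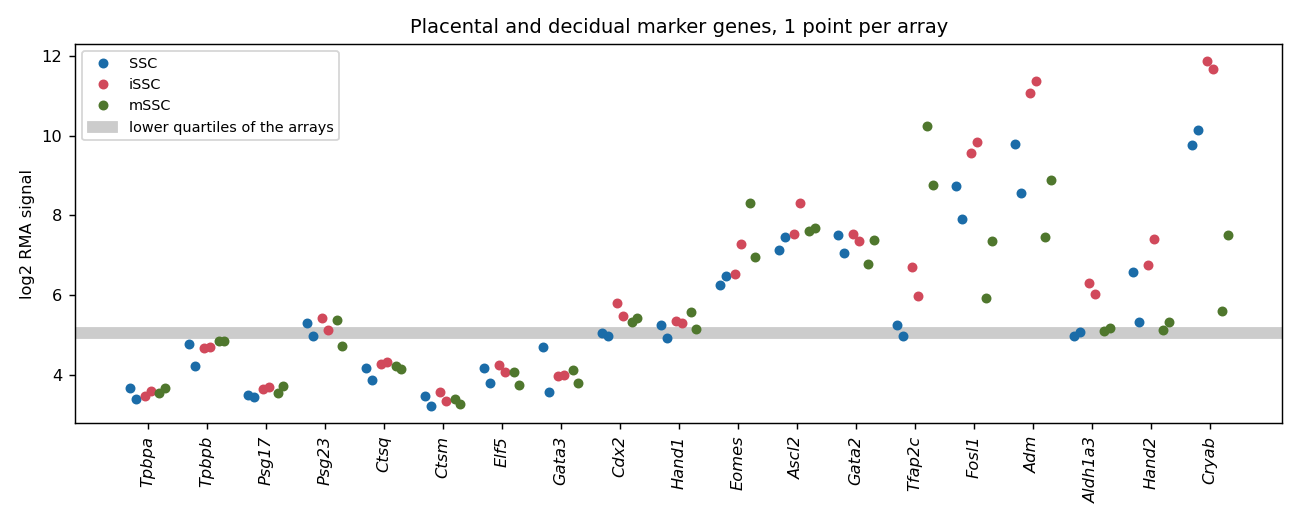
Log2 signal of 19 placental and decidual marker genes, 1 point per array, with the range of the arrays' lower quartiles (4.91 to 5.16) shaded. Tpbpa, Tpbpb, Psg17, Ctsq, Ctsm, Elf5 and Gata3 lie below the shaded range on every array. Adm, Fosl1 and Cryab are lower on the mSSC arrays than on the iSSC arrays, and Tfap2c is higher. Other listed genes called between mSSC and iSSC are not shown, both those that rose, such as Esrrb and Gjb5, and those that fell, such as Igf2 and Lgmn.

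Between mSSC and iSSC, where 7.53% of all genes were called as higher in mSSC and 9.6% as lower, the same lists held genes that moved in both directions. Of the 19 transcription factors 3 rose in mSSC and 2 fell. Esrrb (6.13 ± 0.25, limma adjusted p = 0.00026), Sox2 (3.83 ± 0.46, adjusted p = 0.0046) and Tfap2c (3.16 ± 0.50, adjusted p = 0.010) rose, and the first pair are also factors of pluripotent cells. Fosl1, an AP-1 subunit that giant cells need, fell in mSSC by 3.05 (SE 0.50, adjusted p = 0.011), as did Cited2. Fosl1 was at 8.73 and 7.90 in SSC, 9.56 and 9.83 in iSSC and 5.93 and 7.35 in mSSC, and its iSSC minus SSC difference was 1.38 ± 0.50 (adjusted p = 0.24). Of 13 giant cell genes 4 fell in mSSC and none rose, namely Limk1, Lgmn, Cdkn1c and Adm. Adm, the vessel-dilating peptide adrenomedullin, was at 9.80 and 8.57 in SSC, 11.08 and 11.37 in iSSC and 7.46 and 8.88 in mSSC, and fell by 3.06 (SE 0.57, adjusted p = 0.016) from iSSC to mSSC.

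Of 21 spongiotrophoblast and glycogen cell genes 2 rose and 4 fell in mSSC against iSSC (7.53% and 9.6% of all genes). The imprinted growth regulator Phlda2 rose by 2.38 ± 0.24 (limma, adjusted p = 0.0027) and the gap junction gene Gjb5 by 3.19 ± 0.37 (adjusted p = 0.0041). Igf2, Flt1, Gjb2 and Aldh1a3 fell. Aldh1a3, an enzyme of retinoic acid synthesis, was highest on the iSSC arrays, at 4.96 and 5.08 in SSC, 6.29 and 6.02 in iSSC and 5.09 and 5.18 in mSSC. It fell by 1.02 (SE 0.21, adjusted p = 0.023) from iSSC to mSSC and differed by 1.13 ± 0.21 between iSSC and SSC (adjusted p = 0.056). With its probe sets averaged, the mSSC minus iSSC difference of Aldh1a3 was -0.45 (adjusted p = 0.24). Of 15 labyrinth genes 1 rose, Peg10 (1.52 ± 0.25, adjusted p = 0.011), and of 8 cathepsins none was called, with 0 at an unadjusted p under 0.05.

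Decidual stroma is the other known source of Prl8a2. Without prolactin genes, none of its 16 listed genes was called between iSSC and SSC (limma; 4 at an unadjusted p under 0.05), with a median difference of 0.06, where 2.09% of all genes were called and 17.0% had an unadjusted p under 0.05. Against iSSC 4 fell in mSSC and 1 rose, where 9.6% of all genes were called as lower and 7.53% as higher. Cryab, a small heat shock protein, was at 9.77 and 10.15 in SSC, 11.87 and 11.68 in iSSC and 5.59 and 7.51 in mSSC, and fell by 5.22 (SE 0.58, adjusted p = 0.0038). Hand2, which mediates progesterone action in the uterus, fell by 1.86 (SE 0.45, adjusted p = 0.035), as did Wnt5a and Bmp2, while Alpl, also an alkaline phosphatase of pluripotent cells, rose by 2.49 ± 0.42 (adjusted p = 0.012). Of the placental and decidual genes named as called between mSSC and iSSC, only Esrrb, Sox2, Phlda2, Gjb5 and Cryab kept the call in all 6 fits that left out an array. The others lost it without at least 1 iSSC array, and Hand2 also without either mSSC array, with a replicate block (adjusted p = 0.061) and with its probe sets averaged (-0.67, adjusted p = 0.13). Averaged probe sets also ended the calls of Limk1 (-0.63, adjusted p = 0.065) and Igf2 (-1.59, adjusted p = 0.11), and quantile normalization (0.069) or median centring (0.064) that of Bmp2. Without mSSC replicate 1 those of Cited2, Flt1, Aldh1a3, Wnt5a and Bmp2 were lost too, and without mSSC replicate 2 those of Gjb2 and Aldh1a3.

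Genes of prolactin and growth hormone signalling were examined next, with Prlr not analysed here. Ghr, the growth hormone receptor, was at 10.07 and 9.43 in SSC, 6.54 and 6.74 in iSSC and 6.12 and 7.00 in mSSC. It fell by 3.11 (SE 0.36, limma adjusted p = 0.029) from SSC to iSSC, with no overlap, as for 50.0% of all genes. Igf1, a growth factor induced through Ghr, fell by 2.71 (SE 0.41, adjusted p = 0.037), from 10.73 and 9.45 in SSC to 7.44 and 7.33 in iSSC. In this comparison 1.87% of all genes were called as lower and 0.225% as higher. Ghr and Igf1 were the 2 of 14 receptor and signalling genes called, none of them as higher. Both calls were lost with a replicate block (adjusted p = 0.051 and 0.057), and without SSC replicate 1 or either iSSC array, when no gene at all was called. With probe sets averaged Ghr differed by -1.74 (adjusted p = 0.05), and after quantile normalization Igf1 had an adjusted p of 0.051.

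The signal carriers and feedback inhibitors were above background on all arrays, in cultures where feeder cells can be present. Jak2 was at 9.64 and 8.3 in SSC, 7.43 and 7.07 in iSSC and 6.9 and 7.25 in mSSC. Its iSSC minus SSC difference was -1.72 ± 0.44 (limma, adjusted p = 0.13). In mSSC minus SSC it was -1.89 ± 0.44 (limma, adjusted p = 0.032). The SSC arrays were uneven for Jak2 (SD 0.95, n = 2), and its value is from the brighter of its 2 probe sets. Stat5a was at 8.43 and 8.21 in SSC, 9.10 and 8.68 in iSSC and 7.14 and 8.07 in mSSC, and Stat5b lay between 7.28 and 8.12. Cish, a target of Stat5, was at 8.53 and 8.03 in SSC, 8.44 and 8.05 in iSSC and 8.05 and 7.53 in mSSC, with an iSSC minus SSC difference of -0.03 ± 0.30 (limma, adjusted p = 0.98). Socs2, another inhibitor in this pathway, was between 6.67 and 6.87 on the SSC and iSSC arrays and rose by 3.65 ± 0.24 in mSSC against iSSC (adjusted p = 0.0011), where Prl8a9 and Prl8a2 were near background. Stat3 and Igf1 fell in that comparison, and 11 of the 14 genes were not called. Of all genes 7.53% were called there as higher and 9.6% as lower. With probe sets averaged the differences were -0.40 for Stat3 (adjusted p = 0.37) and -0.73 for Igf1 (adjusted p = 0.25). The call of Igf1 was also lost without any 1 of the iSSC and mSSC arrays (adjusted p from 0.074 to 0.15), and that of Stat3 without either iSSC array or mSSC replicate 1 (from 0.084 to 0.18). Of 6 pituitary genes other than Prl none was called in any comparison (limma, with 0 at an unadjusted p under 0.05 in each). Of all genes 2.09% were called in iSSC against SSC, 17.1% in mSSC against iSSC and 18.8% in mSSC against SSC. In the same order 17.0%, 30.9% and 33.4% of all genes had an unadjusted p under 0.05.

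Transcripts of other cells changed between the same samples. Of 16 macrophage genes 8 fell and none rose in iSSC against SSC, where 1.87% of all genes were called as lower and 0.225% as higher, and the list median went from 11.85 and 10.75 in SSC to 8.90 and 8.27 in iSSC and 4.86 and 4.69 in mSSC. C1qb, a complement chain of macrophages, fell by 3.21 (SE 0.35, limma adjusted p = 0.028) from SSC to iSSC. Of 19 fibroblast genes 2 fell, Timp3 and Col6a2, with list medians of 12.27 and 11.71 in SSC, 9.66 and 10.18 in iSSC and 7.39 and 9.17 in mSSC. Between groups both list medians were lower in iSSC than in SSC, while within SSC replicate 1 had the higher median of both lists and the higher Prl8a9 and Prl8a2. In bulk samples fewer cells of a type and less RNA per cell cannot be told apart, and the part of these cells in the prolactin signal was not tested. Of 14 spermatogonial genes 1 rose in iSSC against SSC, the Gdnf target Lhx1 (1.36 ± 0.20, adjusted p = 0.035), and of 16 pluripotency genes none was called there (limma; 4 at an unadjusted p under 0.05, against 17.0% of all genes). Lhx1 lost its call with a replicate block, averaged probe sets, an intensity trend or any SSC or iSSC array left out (adjusted p from 0.052 to 0.3). With probe sets averaged C1qb (adjusted p = 0.05), Timp3 (0.072) and Col6a2 (0.051) lost theirs, Col6a2 also with a replicate block (0.069) or without SSC replicate 2 (0.055). Without SSC replicate 1 or either iSSC array no gene of any list was called between iSSC and SSC.

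The genes most like Prl8a9 and Prl8a2 over the 6 arrays were found by Pearson's r with the mean of their centred values, among the 3364 genes that spanned at least 2 log2 units. Since they were picked for this pattern, they are described with no test, and the 6 points share 3 groups: 59 genes exceeded 0.9. The first 10 had r from 0.960 to 0.991. Ptgir, the prostacyclin receptor, led at r = 0.991, with 5.24 and 4.48 in SSC, 6.72 and 6.91 in iSSC and 4.71 and 4.77 in mSSC. Crct1, a gene of cornified epithelium (r = 0.987), was at 5.52 and 4.01, 7.32 and 7.81, and 4.54 and 4.46 in the same order. Both shared with Prl8a9 the intermediate value in SSC replicate 1.

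Crygs, a crystallin gene (r = 0.986), was at 6.12 and 5.73 in SSC, 7.70 and 7.41 in iSSC and 5.69 and 5.51 in mSSC. Plvap, a protein of endothelial diaphragms (r = 0.965), was at 6.85 and 6.57 in SSC, 9.24 and 8.57 in iSSC and 6.40 and 5.95 in mSSC. Dlx4, a homeobox gene (r = 0.965), was at 5.36 and 4.67 in SSC, 6.64 and 5.97 in iSSC and 4.73 and 4.46 in mSSC. The glycolytic regulator Pfkfb3 (0.965), the potassium channel subunit Kcne4 (0.981), AW112010 (0.981), the membrane fusion gene Stx11 (0.961) and the lymphocyte gene Cd7 (0.960) completed the 10. In all 10 both iSSC arrays were above the other 4 arrays, which the choice by pattern makes likely.

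**Figure D4:**
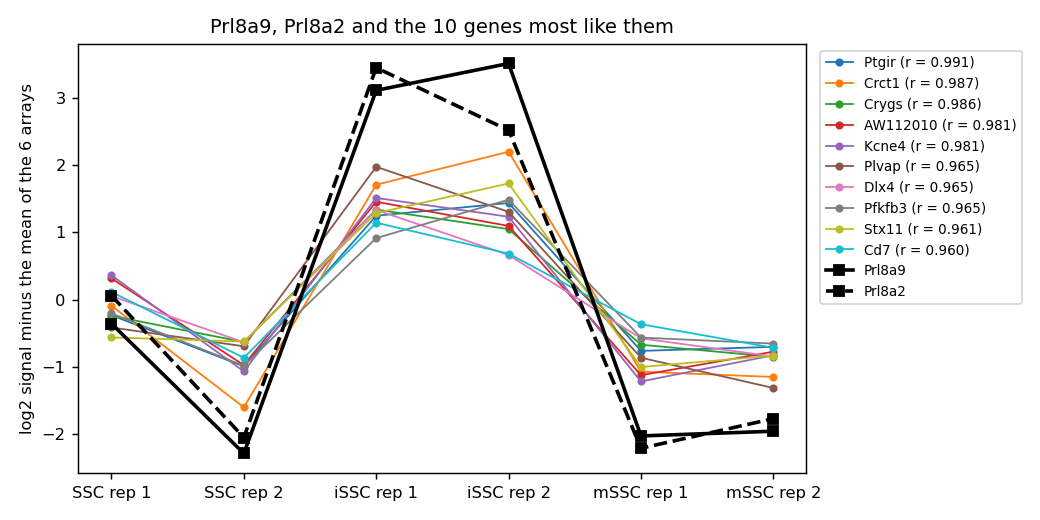
Log2 signal minus the mean over the 6 arrays for Prl8a9 and Prl8a2 (black squares) and the 10 genes with the highest r to their mean (0.960 to 0.991). All lines peak on the iSSC arrays, and the prolactin genes span more than the others.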

How the data were processed

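Each of the 6 RNA samples (2 per kind of cell) was hybridised to 1 Affymetrix array of 45101 probe sets. The deposited values are log2 signals that the authors made with RMA, per the submitters' processing notes. RMA normalizes between arrays, and array medians lay between 7.11 and 7.43 over genes, so nothing further was applied. Of the probe sets 34958 had 1 symbol, 932 several and 9211 none; 34754 matched RefSeq (GRCm38.p6) and 0 symbols were updated. The probe set with the highest mean stood for a gene, which left 18194 genes. The tests used limma (version 3.58.1; R 4.3.3), with group means fitted over 6 arrays, 2-sided, adjusted by Benjamini-Hochberg over all genes and called under 0.05. Members and lists were chosen with earlier results of these data known. Named are the members, other family genes, called genes of the lists (the 4 smallest p where over 4 were called), list markers, cluster neighbours, the 10 most alike and the 3 largest increases. Precision is limited by 2 arrays a group. Alternatives were a replicate block, a filter on dim genes, averaged probe sets, quantile normalization, median centring, other variances, 4 arrays and leaving out each array.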

Additional observations from a re-analysis of the deposited data

Results flagged for a closer look

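A probe set outside the gene comparisons carried strong signal on the iSSC arrays. Its annotation lists 4 symbols, most of them from the Prl2c branch that encodes the proliferins, so its signal belongs to no single gene. Its log2 level was 11.03 and 9.90 in SSC, 12.70 and 12.13 in iSSC and 5.99 and 8.42 in mSSC, and the iSSC arrays were the highest at a mean of 12.41 ± 0.40 (SD, n = 2). In limma over all 45101 probe sets the iSSC minus SSC difference was 1.95 ± 0.83 (adjusted p = 0.37), and mSSC minus iSSC was -5.21 ± 0.83 (adjusted p = 0.020; 0.15 and 0.12 without iSSC replicate 1 or 2). The mSSC minus SSC difference was -3.26 ± 0.83 (adjusted p = 0.065), and passed without mSSC replicate 2 (-4.47, adjusted p = 0.029). Another probe set of the branch, whose annotation lists 5 symbols, lay between 3.04 and 3.26 on all arrays.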

How the results depend on the processing

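The number of members above background was 2 in iSSC and 0 in the other groups under each of 3 other settings. These were the array median or the olfactory receptor level as background, and averaged probe sets. Each of the 5 measured members had 1 probe set, so averaging left its values unchanged. The median lies above the lower quartile, so with it the counts of 0 could not rise. Of 13 other family genes 0 were called in iSSC against SSC and in mSSC against iSSC under each of the 13 alternatives; in mSSC against SSC 1 was called after median centring (Prl8a8), and leaving out an array gave 0 to 1 (Prl3a1 without SSC replicate 2). Genes called in iSSC against SSC went from 381 to 29 with probe sets averaged and to 148 with a replicate block; leaving out an array gave 0 to 503, with 0 without SSC replicate 1 (2527 at an unadjusted p under 0.05 in limma), iSSC replicate 1 (1357) or iSSC replicate 2 (2000). For mSSC against iSSC, 3117 in all, leaving out an array gave 604 to 3724, with 604 and 771 without iSSC replicates 1 and 2 and 1954 without mSSC replicate 1. For mSSC against SSC, 3425 in all, the 4 arrays of those groups gave 1966, and leaving out an array gave 1966 to 3462. The lower counts there were 2146 without SSC replicate 1, 1966 without either iSSC array and 2116 without mSSC replicate 1. These fits take the spread of a group left with 1 array from the other groups. The replicate numbers share only a number: deviations of same-numbered arrays correlated across genes at 0.120 (SSC, iSSC), 0.068 (SSC, mSSC) and 0.171 (iSSC, mSSC). The replicate block moved the counts of the other comparisons to 3175 and 3428. Settings for single named genes were added after seeing the data.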
